A study of Mus musculus with 6 samples.

Results

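The TNF receptor superfamily genes described here were taken from a fixed list of 9, all present among the 17438 genes of the deposited count table: Tnfrsf8 (CD30), Tnfrsf9 (4-1BB), Tnfrsf4 (OX40), Tnfrsf18 (GITR), Tnfrsf25 (DR3), Tnfrsf1a (TNFR1), Tnfrsf1b (TNFR2), Cd27 and Ltbr (lymphotoxin β receptor). They were measured by RNA sequencing in cultured group 2 innate lymphoid cells (ILC2s), lymphocytes that release type 2 cytokines, sorted from mouse lung. Every sample carried the label of IL-33 treatment, and an untreated group was not analysed here. The mutant group was the Cd48 knockout (KO, n = 3), with genotype B6.129S4-Cd48tm1Rsr/EpaulJ, a targeted allele of donor strain 129S4. The control group was wild type (WT, n = 3), and the labels give both groups the strain as CB57BL/6. The series' design text speaks of duplicates, whereas 3 samples per genotype were given here, and what sets the extra sample of each genotype apart is not stated. Each n, SD and p below takes the 3 as separate samples. No label gives an age or says that the samples came from separate animals. The p-values therefore set the genotype difference only against how much these samples vary within a group, and that variation may be technical. All 9 genes passed the filter on low counts.

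TNF receptor superfamily proteins bind trimeric ligands of the TNF family, cluster at the cell surface and recruit TRAF adaptors, which switch on NF-κB and MAP kinase signalling. Tnfrsf1a and Tnfrsf25 encode receptors that carry a death domain in the cytoplasmic tail, whereas Tnfrsf9, Tnfrsf4, Tnfrsf18, Tnfrsf8 and Cd27 encode costimulatory receptors best known from activated T cells. On ILC2s, DR3 and GITR are known to raise type 2 cytokine output when bound by their ligands TL1A and GITRL.

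The genes sat in 2 groups of the genome (GRCm38/mm10), away from the targeted Cd48 locus on chromosome 1. On chromosome 4, 6 of them lay between 145213463 and 156028895 (10.8 Mb), in the order Tnfrsf1b, Tnfrsf8, Tnfrsf9, Tnfrsf25, Tnfrsf4 and Tnfrsf18. Tnfrsf1b (145213463 to 145246870, minus strand) and Tnfrsf8 (145267137 to 145315164, minus strand) were 20.3 kb apart, and Tnfrsf4 and Tnfrsf18 were 9.55 kb apart. On chromosome 6, Cd27, Ltbr and Tnfrsf1a lay within 0.13 Mb (125232622 to 125362484). Tnfrsf9 (chromosome 4, 150914562 to 150946102, plus strand) overlaps Camta1 on the other strand, Tnfrsf18 overlaps Gm16008 and Cd27 overlaps Vamp1. The strand setting of the counting was not given, so the reads of a receptor gene and its overlapping partner may be mixed.

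Promoter windows of the 9 genes were taken from RefSeq (GRCm38.p6), which lists 11 starts for them, each with 250 bases before and 50 after the start. They are shown for Tnfrsf8 and Tnfrsf9, whose transcripts differed most clearly between the genotypes. Capitals mark matches, on either strand, to the NF-κB consensus or to the AP-1 motif TGANTCA.
Tnfrsf8 (chr4:145315115-145315414, minus strand): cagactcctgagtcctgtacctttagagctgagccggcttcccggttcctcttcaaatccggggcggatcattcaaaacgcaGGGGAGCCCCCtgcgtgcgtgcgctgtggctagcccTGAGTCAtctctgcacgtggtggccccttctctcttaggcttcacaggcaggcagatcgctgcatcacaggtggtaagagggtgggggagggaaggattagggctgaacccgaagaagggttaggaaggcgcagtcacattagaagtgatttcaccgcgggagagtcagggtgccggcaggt
Tnfrsf9, upstream start (chr4:150919905-150920204, plus strand): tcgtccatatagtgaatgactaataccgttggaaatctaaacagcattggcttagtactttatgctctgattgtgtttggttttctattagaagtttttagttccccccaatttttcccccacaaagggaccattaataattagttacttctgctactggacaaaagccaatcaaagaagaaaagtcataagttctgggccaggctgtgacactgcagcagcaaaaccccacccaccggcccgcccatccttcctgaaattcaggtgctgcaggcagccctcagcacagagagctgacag
Tnfrsf9, downstream start (chr4:150927749-150928048, plus strand): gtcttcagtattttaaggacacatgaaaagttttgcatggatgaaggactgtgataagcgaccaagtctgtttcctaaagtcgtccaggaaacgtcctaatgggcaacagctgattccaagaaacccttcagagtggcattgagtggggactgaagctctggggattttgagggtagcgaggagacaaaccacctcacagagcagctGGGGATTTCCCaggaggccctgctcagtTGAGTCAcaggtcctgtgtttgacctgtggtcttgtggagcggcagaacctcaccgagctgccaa
The Tnfrsf8 window held GGGGAGCCCC beginning 168 bases before the start, which overlapped a second NF-κB match 1 base further on, and TGAGTCA beginning 132 bases before the start. The downstream Tnfrsf9 window held GGGGATTTCC beginning 43 bases before the start, again with a second NF-κB match 1 base on, and TGAGTCA beginning 15 bases before it. Of the 11 windows, 3 held an NF-κB match (Tnfrsf8, Tnfrsf9 and 1 of Tnfrsf25), 2 held an AP-1 match and 2 held both. The GATA motif AGATAA, which overlaps neither of the others, was in 0 of the 11. Over 32851 RefSeq promoter windows of the same length, 8.46% held the NF-κB consensus, 7.81% the AP-1 motif, 0.539% both and 11.2% the GATA motif. The motifs were chosen with the expression results known, and a match is a description of letters, not of a bound site.

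Library totals ran from 14928623 to 27450400 counts. The ILC2 markers were abundant as a sum, though not each of them. The 13 listed genes, among them Gata3, Il1rl1 and Il5, summed to 13458 to 14226 CPM (counts scaled to library size) in KO and 11859 to 15357 CPM in WT. Il5 alone was at 6841.4 to 7641.9 CPM in KO and 5597.1 to 10007.1 CPM in WT. Thy1 was at 6.045 to 7.193 CPM in KO and 8.901 to 12.43 CPM in WT. In the fit without WT1, 6 of the 13 had an edgeR unadjusted p under 0.05, beside 13.7% of all genes. EdgeR called 2 of the 13, beside 1.82% of all genes. There Il2ra, the IL-2 receptor α chain, rose (log2 fold change 0.31, edgeR BH-adjusted p 0.0200), as did the cytokine gene Il5 (0.29, edgeR BH-adjusted p 0.0332). DESeq2 called both in that fit, and Il13 as well. Other markers of the list went the other way there without a call. Thy1 was at a log2 fold change of -0.47 (edgeR unadjusted p 0.0311, BH-adjusted p 0.298) and Gata3 at -0.23 (edgeR BH-adjusted p 0.573). With all 6 libraries edgeR and DESeq2 called 0 of the 13, and Il5 was at -0.018. There 2 of the 13 had an edgeR unadjusted p under 0.05, beside 6.89% of all genes. Limma-voom with each library weighted by its quality called Il2ra on all 6 libraries. The part of these ILC2 markers in the receptor levels was not tested. Cd48, the targeted gene, was at 4.84 ± 0.657 CPM in KO and 48.8 ± 8.51 CPM in WT (SD, n = 3 each). The library WT1 stood apart: Pearson's r of log2 CPM over 13317 genes was 0.938 to 0.948 for the 5 pairs with WT1 and 0.985 to 0.992 for the other 10 pairs. Genes with transcripts of 4000 to 8000 bases had a median log2 difference of -0.41 between WT1 and the mean of WT2 and WT3. For genes with transcripts of 1000 to 2000 bases that median was 0.28. Each result is therefore given with all 6 libraries and without WT1.

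Of the 9 receptor genes, Tnfrsf8 and Tnfrsf9 were those whose transcripts were higher in every KO library than in every WT library. Both passed the test once WT1 was left out, while the abundant receptors Tnfrsf18, Tnfrsf25 and Tnfrsf1b did not pass in either fit. With all 6 libraries, the edgeR quasi-likelihood test, with Benjamini-Hochberg (BH) adjusted p under 0.05 over all genes, called 0 of the 9 receptors. It called 0.0300% of all 13317 tested genes, 0.0150% higher and 0.0150% lower. On the same libraries 2 receptors, Tnfrsf8 and Tnfrsf9, had an unadjusted p under 0.05, beside 6.89% of all genes. DESeq2 called both (0.811% of all genes), as did limma-voom when each library was weighted by its quality (0.713% of all genes). Unweighted limma-voom called 0 receptors and 0.0300% of all genes. Without WT1, edgeR called 2 of the 9 receptors (22.2%), both higher in KO, beside 1.82% of all 13643 tested genes, 1.17% higher and 0.652% lower. DESeq2 and limma-voom called the same 2 receptors there, beside 3.02% and 1.42% of all genes, and 3 receptors had an unadjusted p under 0.05, beside 13.7% of all genes. The median log2 fold change over the 9 receptors was 0.057 without WT1 and -0.016 with all libraries, beside 0.00048 and -0.0039 over all tested genes.

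Tnfrsf8 encodes CD30, a costimulatory receptor of activated lymphocytes whose ligand is CD30L. Its level was 193, 198 and 207 CPM in KO1, KO2 and KO3, against 134, 116 and 118 CPM in WT1, WT2 and WT3. The groups did not overlap, and WT1 was the WT library nearest to KO. The means were 199 ± 6.90 CPM in KO and 123 ± 10.0 CPM in WT (SD, n = 3 each). Without WT1 the log2 fold change was 0.77 (SE 0.068, 95% interval 0.62 to 0.92), with an adjusted p of 7.72e-05 (edgeR, BH). With all 6 libraries the log2 fold change was 0.70 (SE 0.11, 95% interval 0.44 to 0.96), with an unadjusted p of 0.000401 and an adjusted p of 0.464 (edgeR, BH). On all 6 libraries the adjusted p was 1.23e-05 in DESeq2 and 0.00110 in quality-weighted limma-voom, with WT1 weighted at 0.0919 and the other libraries at 1.08 to 2.36. Without WT1, the Tnfrsf8 call held in each of the 14 alternatives run, including each further library left out, with adjusted p up to 0.00221.

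Tnfrsf9 encodes 4-1BB (CD137), a TRAF-coupled costimulatory receptor induced on activated lymphocytes. Its level was 401, 469 and 387 CPM in KO1, KO2 and KO3, against 112, 234 and 177 CPM in WT1, WT2 and WT3. All KO libraries were above all WT libraries, and WT1 was the lowest. The 3 WT values differed more among themselves than the KO values, with coefficients of variation of 10.5% in KO and 34.9% in WT. The fold of the group means was 2.40 with all libraries and 2.04 without WT1. With all 6 libraries the log2 fold change was 1.26 (SE 0.26, 95% interval 0.64 to 1.89), with an adjusted p of 0.577 (edgeR, BH). Without WT1 it was 1.03 (95% interval 0.68 to 1.39), and the edgeR BH-adjusted p was 0.0321. The call ended when KO3 was left out as well, at a log2 fold change of 1.08 and an edgeR adjusted p of 0.0695. Camta1, on the other strand, was at 8.26 ± 0.0670 CPM in KO and 10.0 ± 3.61 CPM in WT (SD, n = 3 each), far under Tnfrsf9 in every library.

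**Figure D1:**
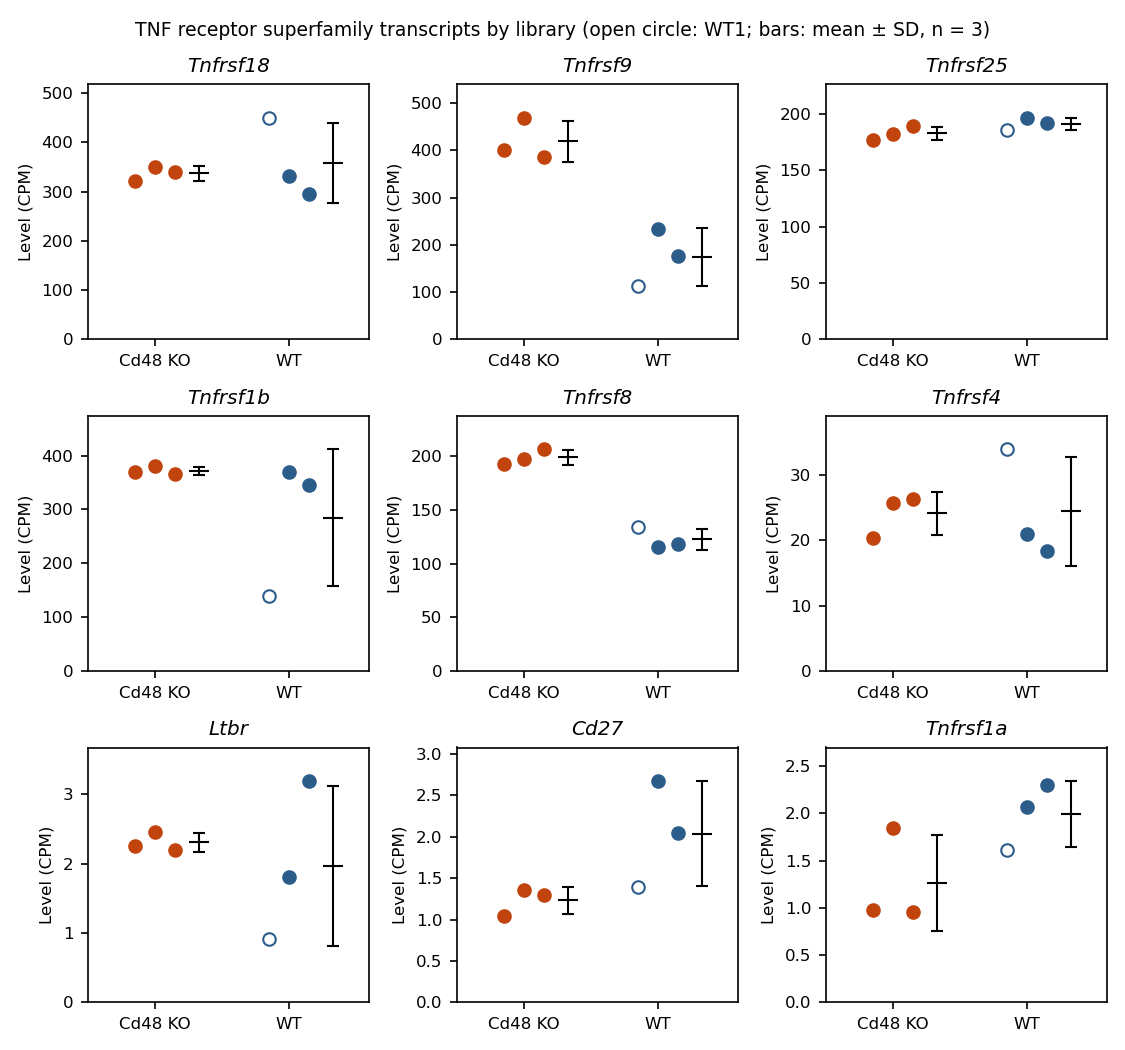
Level of each of the 9 receptor transcripts in CPM (vertical axis, linear from 0, scaled per gene) in the Cd48 KO and WT libraries; points are libraries, the open circle is WT1, and bars are the mean ± SD of 3 libraries. For Tnfrsf8 the KO libraries lie at 193 to 207 CPM above WT at 116 to 134 CPM, and for Tnfrsf9 at 387 to 469 CPM above WT at 112 to 234 CPM, while Tnfrsf1b is low in WT1 alone.

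Among the other chromosome 4 receptors, Tnfrsf1b, the gene next to Tnfrsf8, showed a WT spread that came from 1 library. Tnfrsf1b encodes TNFR2, the TNF receptor without a death domain. Its level was 369, 380.3 and 365 CPM in KO1, KO2 and KO3, against 138.5, 370.4 and 346 CPM in WT1, WT2 and WT3. WT2 lay within the KO range, WT3 just under it and WT1 far under it. The coefficient of variation was 2.11% in KO and 44.7% in WT, and 4.85% over WT2 and WT3. The log2 fold change was 0.38 (SE 0.34) with all libraries and 0.057 (95% interval -0.066 to 0.18) without WT1, with adjusted p of 0.714 and 0.742 (edgeR, BH). Its longest transcript, of 3818 bases, was the longest among the 9 receptors. The log2 difference between WT1 and the mean of WT2 and WT3 was -1.37 for Tnfrsf1b, beside a median of -0.085 over 2432 genes with transcripts of 3000 to 4000 bases. A transcript length trend in the edgeR offsets left the Tnfrsf1b log2 fold change at 0.34 with all libraries.

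Tnfrsf18 encodes GITR, which on ILC2s is engaged by GITRL. It was the most abundant of the receptors per kb of transcript, and its level was 320.5, 350.3 and 339.9 CPM in KO1, KO2 and KO3, against 449.8, 331 and 295 CPM in WT1, WT2 and WT3. The KO values lay inside the WT range, whose top was WT1. The log2 fold change was -0.09 with all libraries and 0.11 without WT1, where the 95% interval ran from -0.034 to 0.25 (adjusted p 0.521, edgeR, BH). Tnfrsf4 encodes OX40, the partner of OX40L. It was at 20.3, 25.7 and 26.4 CPM in KO1, KO2 and KO3, against 33.9, 21.0 and 18.4 CPM in WT1, WT2 and WT3. Again WT1 was the highest library and the groups overlapped. Its log2 fold change was -0.016 (SE 0.26) with all libraries and 0.30 (SE 0.15, 95% interval -0.021 to 0.62) without WT1, where the adjusted p was 0.405 (edgeR, BH). The log2 difference between WT1 and the mean of WT2 and WT3 was 0.52 for Tnfrsf18 and 0.78 for Tnfrsf4. Their longest transcripts have 1189 and 1090 bases, and the median over 2287 genes of 1000 to 2000 bases was 0.28. Tnfrsf25 (1661 bases) and Cd27 (1559 bases) were at -0.066 and -0.76.

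Tnfrsf25 encodes DR3, the TL1A receptor, and was the steadiest of the 9 across the WT libraries. Its level was 177, 182 and 189 CPM in KO1, KO2 and KO3, against 185, 196 and 192 CPM in WT1, WT2 and WT3. The coefficient of variation was 3.31% in KO and 2.85% in WT, and WT1 did not stand apart for this gene. The log2 fold change was -0.065 with all libraries and -0.083 without WT1 (95% interval -0.22 to 0.055), with adjusted p of 0.803 and 0.638 (edgeR, BH). Without WT1 every KO library was under both WT libraries (177 to 189 CPM in KO, 196 and 192 CPM in WT2 and WT3), a difference that did not pass the test.

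The chromosome 6 receptors were near the detection limit of these libraries. Tnfrsf1a, the death domain receptor for TNF, had 16, 30 and 17 counts in KO1, KO2 and KO3, against 23, 31 and 64 counts in WT1, WT2 and WT3. Cd27, the receptor for CD70, had 17, 22 and 23 counts in KO1, KO2 and KO3, against 20, 40 and 57 counts in WT1, WT2 and WT3. Ltbr, which is best known from stromal and myeloid cells, had 37, 40 and 39 counts in KO1, KO2 and KO3, against 13, 27 and 89 counts in WT1, WT2 and WT3. Scaled to library size, Cd27 was at 1.04 to 1.35 CPM in KO and 1.40 to 2.67 CPM in WT, so the groups did not overlap, with a log2 fold change of -0.73 (95% interval -1.59 to 0.13) with all libraries and -0.92 (-1.74 to -0.10) without WT1. Its adjusted p were 0.690 and 0.294 (edgeR, BH). Vamp1, a vesicle fusion gene on the strand opposite Cd27, was at 8.15 ± 1.47 CPM in KO and 7.04 ± 3.71 CPM in WT (SD, n = 3 each), several times the level of Cd27 in both genotypes. With the strand setting unknown, how many of the Cd27 counts came from Vamp1 was not tested. Tnfrsf1a had log2 fold changes of -0.66 (95% interval -1.59 to 0.26) and -0.80 (-1.69 to 0.10), and Ltbr of 0.20 (-0.89 to 1.29) and -0.14 (-0.88 to 0.60). None of the 3 passed the adjusted test in the alternatives that tested them, which leaves out the minimum of 10 CPM, and their intervals were the widest of the 9 receptors in the fit without WT1.

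**Figure D2:**
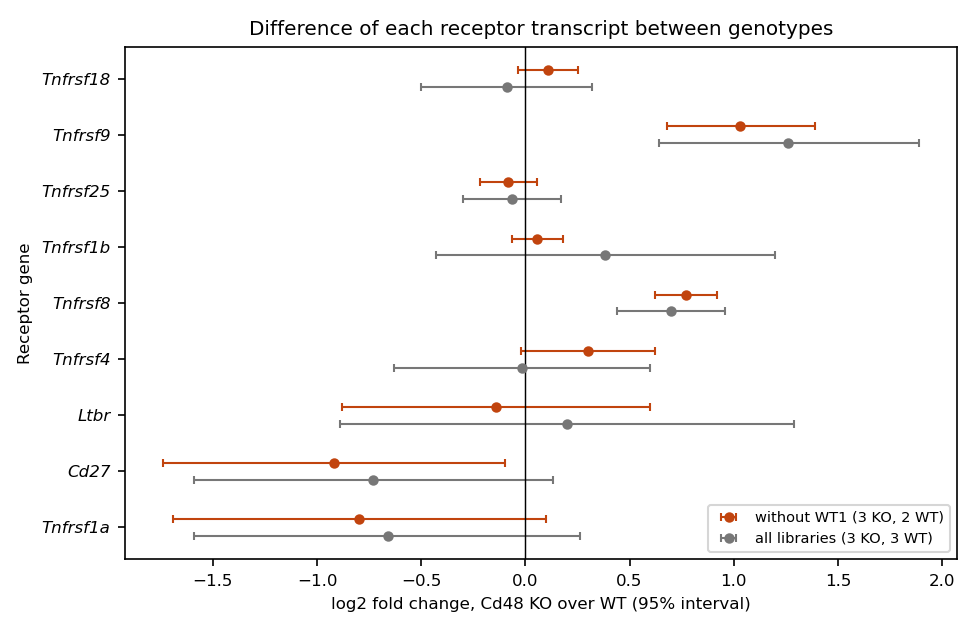
Log2 fold change of each receptor transcript, Cd48 KO over WT, with its 95% interval from edgeR (horizontal axis); orange-red is the fit without WT1 and grey the fit with all 6 libraries. Without WT1, Tnfrsf9 at 1.03 and Tnfrsf8 at 0.77 lie clear of 0, Tnfrsf18, Tnfrsf25 and Tnfrsf1b have intervals within 0.25 of 0, and Tnfrsf1a, Cd27 and Ltbr have wide intervals.

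Counting libraries alone, with all 6 libraries 2 receptors were higher in every KO library than in every WT library (Tnfrsf8 and Tnfrsf9) and 1 was lower in every KO library (Cd27). That is 3 of 9, beside 19.3% of all tested genes whose groups did not overlap, 10.2% higher and 9.11% lower. Without WT1 the count was 2 higher (Tnfrsf8 and Tnfrsf9) and 3 lower (Tnfrsf25, Tnfrsf1a and Cd27), beside 15.8% and 14.3% of all tested genes.

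Levels between genes were compared as CPM per kb of the longest annotated transcript. In KO the order was Tnfrsf18 (283 ± 12.7), Tnfrsf9 (198 ± 20.7), Tnfrsf25 (110 ± 3.64), Tnfrsf1b (97.3 ± 2.05), Tnfrsf8 (58.3 ± 2.02) and Tnfrsf4 (22.1 ± 3.03 CPM per kb, SD, n = 3). No neighbours in this order overlapped in KO. Then came Ltbr (1.09 ± 0.0642), Cd27 (0.789 ± 0.108) and Tnfrsf1a (0.585 ± 0.235 CPM per kb, SD, n = 3), with Cd27 and Tnfrsf1a overlapping. In WT2 and WT3 Tnfrsf18 again led at 263 ± 21.9 CPM per kb (SD, n = 2), followed by Tnfrsf25 at 117 ± 1.76 CPM per kb. Tnfrsf9 at 97.2 ± 18.9 and Tnfrsf1b at 93.8 ± 4.55 CPM per kb overlapped there, ahead of Tnfrsf8 at 34.2 ± 0.517 CPM per kb (SD, n = 2). Tnfrsf9 thus had rank 2 among the 9 receptors in KO and rank 3 in WT, with or without WT1. Against all tested genes, Tnfrsf9 stood at the 97.5 percentile in KO and at the 94.0 percentile in WT2 and WT3, and Tnfrsf8 at 89.3 and 82.0. These places are descriptions and were not tested.

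**Figure D3:**
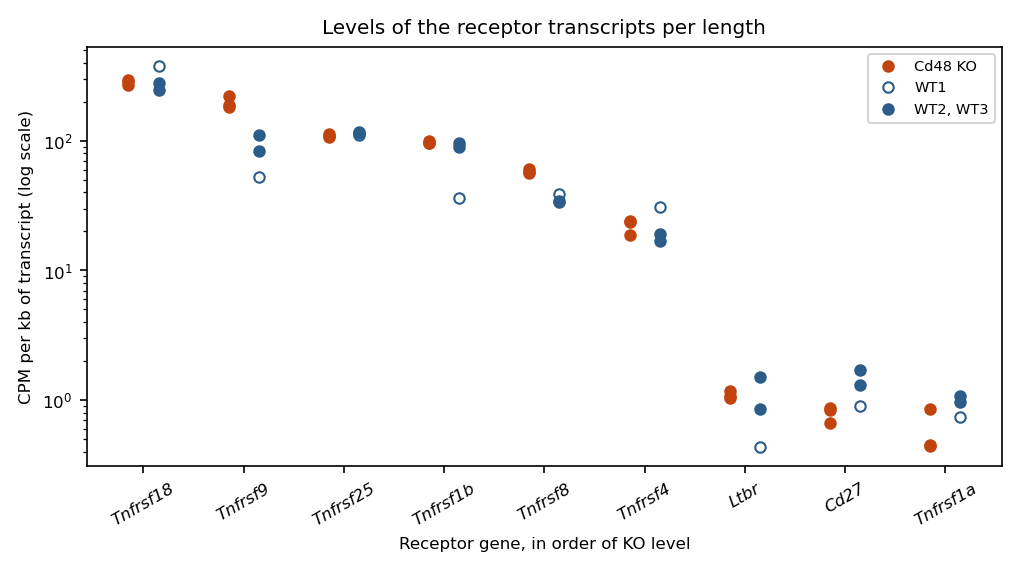
Level of each receptor transcript in CPM per kb of its longest transcript (vertical axis, log scale) by library, ordered by the KO mean. The 6 chromosome 4 receptors lie at 16.9 CPM per kb or more in every library and the 3 chromosome 6 receptors at 1.71 CPM per kb or less.

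The partners of these receptors moved unevenly. Of 10 listed ligands 8 were in the table and 7 tested. Without WT1, Tnfsf8 (CD30L) rose and Tnfsf4 (OX40L) and Ltb (lymphotoxin β) fell in edgeR's test, which called 1.82% of all genes. With all 6 libraries edgeR called 0 ligands, beside 0.0300% of all genes. There 4 ligands had an edgeR unadjusted p under 0.05, beside 6.89% of all genes. DESeq2 called Tnfsf8, Tnfsf4 and Ltb on those 6 libraries, beside 0.811% of all genes. The ligands were listed with these results known. Ltb, a subunit of the ligand of Ltbr, was at 52.5, 47.2 and 57.8 CPM in KO1, KO2 and KO3, against 117, 82.0 and 81.2 CPM in WT1, WT2 and WT3 (log2 fold change -0.63 without WT1, edgeR BH-adjusted p 0.00602). Tnfsf8, the ligand of CD30, was at 65.5, 70.6 and 80.2 CPM in KO1, KO2 and KO3. It was at 26.8, 34.0 and 41.0 CPM in WT1, WT2 and WT3. Ligand and receptor were both higher in KO (log2 fold changes without WT1 of 0.94 and 0.77). Tnfsf4, the ligand of OX40, was at 89.46, 79.13 and 84.78 CPM in KO1, KO2 and KO3. It was at 126.2, 149.5 and 143.9 CPM in WT1, WT2 and WT3. Without WT1 its log2 fold change was -0.79 (edgeR BH-adjusted p 0.000177), whereas its receptor gene Tnfrsf4 was at 0.30 and did not pass. Tnfsf9, the ligand of 4-1BB, was at 21.9, 23.7 and 20.6 CPM in KO1, KO2 and KO3, against 23.7, 20.6 and 19.1 CPM in WT1, WT2 and WT3, and did not pass (log2 fold change 0.16 without WT1, adjusted p 0.674, edgeR, BH).

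The signalling genes downstream of the receptors did not pass in edgeR or limma-voom in either fit. Of 25 TRAF, death domain, kinase and other signalling genes, all tested, edgeR called 0 with all libraries and 0 without WT1. It called 0.0300% and 1.82% of all genes in these fits. An edgeR unadjusted p under 0.05 was found for 3 with all libraries and 4 without WT1, beside 6.89% and 13.7% of all genes. DESeq2 called 0 with all libraries and 2 without WT1, beside 0.811% and 3.02% of all genes, while limma-voom called 0 in both. The 2 were Chuk, a kinase of NF-κB activation, and Otulin, a deubiquitinase of linear chains. Their log2 fold changes without WT1 were 0.28 for Chuk and -0.93 for Otulin. The 4 most abundant, Casp8, Traf1, Rbck1 and Cyld, had log2 fold changes of 0.077, -0.022, 0.01 and 0.15 without WT1. Of 11 NF-κB subunits and inhibitors edgeR, DESeq2 and limma-voom called 0 in both fits. An edgeR unadjusted p under 0.05 was found for 1 with all libraries and 2 without WT1, beside the same 6.89% and 13.7% of all genes. Nfkb1, Nfkb2, Nfkbia and Rela had log2 fold changes of 0.16, -0.041, 0.085 and -0.31 without WT1. The medians without WT1 were 0.042 for the 25 signalling genes and -0.041 for the NF-κB genes, beside 0.00048 over all tested genes.

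Other receptors of the superfamily were in the table for 15 of 19 listed genes, and 12 were tested. EdgeR called 0 in either fit, beside 0.0300% of all genes with all libraries and 1.82% without WT1. An edgeR unadjusted p under 0.05 was found for 1 with all libraries and 3 without WT1, beside 6.89% and 13.7% of all genes. Limma-voom called 0, and DESeq2 called 0 with all libraries and Tnfrsf13b (TACI) without WT1. The most abundant, Tnfrsf11a (RANK), Tnfrsf21 (DR6), Tnfrsf10b (the TRAIL receptor) and Fas, had log2 fold changes of -0.22, 0.30, 0.09 and 0.36 without WT1. Tnfrsf13b was at 18.26, 20.04 and 14.96 CPM in KO1, KO2 and KO3, against 14.18, 8.08 and 11.95 CPM in WT1, WT2 and WT3 (log2 fold change 0.81 without WT1, edgeR BH-adjusted p 0.0663). Tnfrsf21 was at 32.6 to 33.6 CPM in KO and 15.01 to 27.44 CPM in WT (edgeR BH-adjusted p 0.235 without WT1). As with Tnfrsf8 and Tnfrsf9, the groups of these receptors did not overlap, and both were higher in KO, but neither passed the edgeR test. The same held for Eda2r, at the low level of 0.977 to 1.91 CPM in KO and 0 to 0.790 CPM in WT. With all 6 libraries, 10.2% of all tested genes were higher in every KO library than in every WT library. Of the other costimulatory receptors, Icos, Cd226 and Cd28 were tested and 0 passed in edgeR or limma-voom, while DESeq2 called Cd226 without WT1 (1 had an unadjusted p under 0.05 in each fit). Icos was at 371, 348 and 348 CPM in KO1, KO2 and KO3, against 294, 393 and 361 CPM in WT1, WT2 and WT3, with a log2 fold change of -0.082 without WT1.

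Markers of other cells are given beside these results, since Tnfrsf9, Tnfrsf8, Tnfrsf4 and Tnfrsf18 are also expressed by activated T cells. In bulk samples fewer cells of a type and less RNA per cell cannot be told apart. Of 9 T cell markers 5 were in the table, with a summed level of 14.4 to 17.0 CPM in KO and 27.9 to 44.6 CPM in WT. Trac and Cd3d, which encode part of the T cell receptor complex, were under 1 CPM in every library. Most of that sum was Cd3g, which fell without WT1 (log2 fold change -0.92, edgeR BH-adjusted p 0.00690). The part of T cell transcripts in the levels of these receptors was not tested. Of 8 myeloid markers 7 were in the table, with sums of 10.1 to 20.8 CPM in KO and 11.3 to 34.4 CPM in WT. They moved in both directions, and edgeR called 0 of the 7 in either fit. Without WT1 the log2 fold change was 1.56 for Fcgr3 (edgeR BH-adjusted p 0.105) and -2.59 for Lyz2 (edgeR BH-adjusted p 0.333). Limma-voom called Lyz2 in that fit. Fcgr3 was at 3.39 to 4.15 CPM in KO and 0.534 to 1.87 CPM in WT. The 5 epithelial markers summed to 9.96 to 23.8 CPM in KO and 26.3 to 68.8 CPM in WT. Epcam, an epithelial adhesion gene, fell without WT1 (log2 fold change -0.83, edgeR BH-adjusted p 0.0347) and was not called by edgeR with all libraries (-0.82, edgeR BH-adjusted p 0.659), where DESeq2 called it. The sums for B cells were 12.2 to 17.2 CPM in KO and 14.1 to 20.0 CPM in WT, and those for the endothelial marker Pecam1 were 40.1 to 41.9 CPM in KO and 29.1 to 39.8 CPM in WT. The listed NK cell and mast cell markers present, Prf1 and Cpa3, were under 1.5 CPM in every library. The part of the epithelial and myeloid transcripts in the levels of Tnfrsf1a, Ltbr and Cd27 was not tested.

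The transcripts whose pattern over the 6 libraries was nearest to Tnfrsf9 were sought among 8675 others with a mean of at least 10 CPM, by the root-mean-square difference of log2 CPM after centring each gene. They were Cenpf, a kinetochore gene (0.142), Loxl2, a collagen cross-linking enzyme (0.158), Adgrg3, an adhesion G protein-coupled receptor (0.215), Aspm, a spindle pole gene (0.215), and Neb, a muscle filament gene (0.225). Each was higher in every KO library than in every WT library and lowest in WT1. This follows from how they were chosen, since Tnfrsf9 itself has that pattern, and is not a separate result. Cenpf, for instance, was at 58.3, 62.3 and 61.6 CPM in KO1, KO2 and KO3, against 18.2, 38.1 and 31.9 CPM in WT1, WT2 and WT3. Cenpf and Aspm lie on chromosome 1, the chromosome of Cd48, and Loxl2, Adgrg3 and Neb on chromosomes 14, 8 and 2. The part of position in these patterns was not tested. The longest transcripts of Cenpf, Loxl2, Adgrg3, Aspm and Neb have 11130, 5316, 3034, 9867 and 22489 bases, and that of Tnfrsf9 has 2115 bases. For 2651 genes with transcripts of 2000 to 3000 bases the median log2 difference of WT1 from WT2 and WT3 was 0.11, and for Tnfrsf9 it was -0.88.

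**Figure D4:**
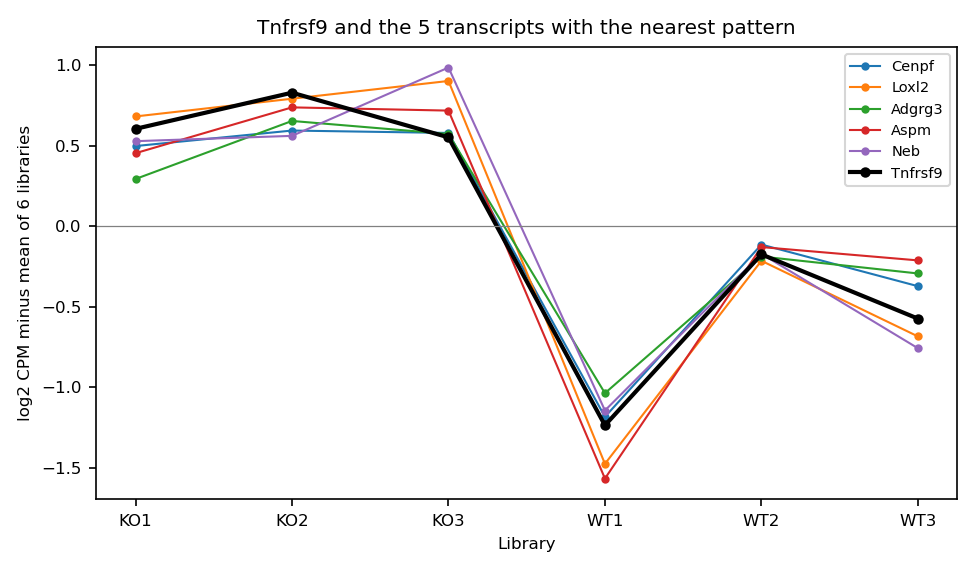
Log2 CPM of Tnfrsf9 (black) and of the 5 transcripts with the nearest pattern, each minus its mean over the 6 libraries (vertical axis), by library (horizontal axis). All 6 transcripts lie above 0 in the 3 KO libraries and under 0 in the 3 WT libraries, with WT1 lowest. The 5 were chosen for their likeness to Tnfrsf9 over these same libraries. Lines join the points of a gene and imply no order of libraries.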

How the data were processed

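The deposited table holds estimated counts per gene that the authors left without normalization, since the totals differ between libraries and 60.2% of non-zero values are whole within 0.001. Per the submitters' processing notes, STAR 2.7.8, Partek 10.0, DESeq2 and mm10 were used, in roles not given in the sources used here. Libraries were grouped by title. The estimated counts were rounded, filtered (filterByExpr, minimum count 10, minimum total 15) and tested over all genes with edgeR 4.0.16 in R 4.3.3 (robust quasi-likelihood, TMM, BH, adjusted p under 0.05). SE is the size of the log2 fold change divided by sqrt(F), and intervals use the fit's total degrees of freedom, residual plus prior. Alternatives were DESeq2 1.42.0, limma 3.58.1, other scaling factors, filters and thresholds, a transcript length trend, a replicate block and each library left out. CPM used TMM library sizes over 6 libraries. Positions and lengths came from GENCODE M21 (GRCm38), which matched 97.6% of symbols and all 9 members. Counts of replicates differed beyond sampling noise for every pair (chi-square per gene 5.22 to 135), so each library counted once. The members, lists and the fit without WT1 were chosen with earlier results of these data known. The text names the members, Cd48, from each pathway list the called genes or otherwise the 4 most abundant, and the 5 nearest patterns to Tnfrsf9. Marker genes, genes called by other tools, genes overlapping a member, Tnfsf9 and Eda2r were named after their values were seen. The tests were tried on simulated counts.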

Additional observations from a re-analysis of the deposited data

How the results depend on the processing

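Calls of the receptors depended on WT1. With all 6 libraries the count of receptors called was 2 (Tnfrsf8 and Tnfrsf9) under DESeq2 and quality-weighted limma-voom, against 0 in edgeR, and was 0 to 2 as each library was left out; the other settings gave 0. Tnfrsf8 then had log2 fold changes of 0.70 (DESeq2) and 0.77 (quality weights), and 0.66 to 0.77 with a library left out; Tnfrsf9 had 1.27, 1.05 and 1.03 to 1.54. Without WT1 the count was 1 to 2 as each further library was left out and 2 elsewhere, and Tnfrsf9 ranged from 0.84 to 1.24, its call ending without KO3 (1.08). Genes called with all libraries were 4, but 108 (DESeq2), 95 (quality weights), 0 (replicate block) and 0 to 248 with a library left out. Without WT1 they were 248, but 412 (DESeq2), 157 (not robust), 420 (adjusted p under 0.1) and 65 to 517 with a further library left out. Receptors near 0 turned direction with all libraries: Tnfrsf4 gave 0.00072 (no filter), 0.059 (limma-voom), 0.29 (quality weights), 0.15 (length trend) and 0.028 (replicate block); Tnfrsf18 gave 0.09 (quality weights) and 0.057 (length trend); Tnfrsf25 gave 0.03 (length trend) and Ltbr -0.016 (quality weights). Without WT1, Tnfrsf4 (0.30), Tnfrsf18 (0.11) and Ltbr (-0.14) turned too, and Tnfrsf4 also without KO1 (0.094). With a library left out, these ranged from -0.18 to 0.30 (Tnfrsf4), -0.21 to 0.11 (Tnfrsf18) and -0.14 to 0.76 (Ltbr). Without WT1 and a further library Ltbr ranged from -0.47 to 0.35, turning without WT3. The causes were not tested. Deviations of same-numbered KO and WT libraries from their group means had correlations of -0.0545, -0.0351 and 0.00229. With 3 libraries per genotype and WT1 apart from the others, these values cannot exclude a pairing. With the replicate block the members called stayed at 0. A minimum mean of 10 CPM left Tnfrsf1a, Cd27 and Ltbr untested. Depth limits Tnfrsf1a, Cd27 and Ltbr, at 13 to 89 counts a library.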
